A study of Mus musculus with 23 samples.

Results

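The miR-181 family was described in the liver of 23 F3 male C57bl/6J mice whose small RNA was sequenced. The members were the rows of the deposited count table that carry these 7 names: mmu-miR-181a-5p, mmu-miR-181b-5p, mmu-miR-181c-5p, mmu-miR-181d-5p, mmu-miR-181a-1-3p, mmu-miR-181a-2-3p and mmu-miR-181c-3p. The species prefix mmu is mostly left out below. They are 7 of 1218 mature miRNAs in the table, and 7 of 7 were among the 386 miRNAs that passed the filter on low counts. The study asked how an obesogenic diet changes hepatic miRNAs and whether omega 3 fatty acids given over generations alter that response. The reference group (n = 8) came from the control lineage, raised over 3 generations on a growing diet with high oleic sunflower oil, and then ate a low-fat diet (STD in the labels). The HFoleic group (n = 8) came from the same control lineage and ate a high-fat, high-sucrose diet (HFD). The HFepa group (n = 7) came from the n-3PUFA lineage, raised on the same growing diet with a fish oil rich in eicosapentaenoic acid (EPA), and ate the HFD. No group of the n-3PUFA lineage ate the low-fat diet, and the labels state neither the age of the mice nor which mice shared a litter. The p-values set the group differences against the spread between these mice and take each mouse as independent. They could be too small if mice of one litter were alike, which was not tested.

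As background, a miRNA is cut from a hairpin transcript, and the arm nearer the 5′ end (5p) and the arm nearer the 3′ end (3p) can each be loaded into an Argonaute protein. The seed near the 5′ end of the loaded arm pairs with target messenger RNAs, which are then translated less or degraded. The 5p arms of miR-181 are the usual guide strands and are best known for setting the sensitivity of the T cell receptor and for roles in lymphocyte development. In endothelium miR-181b restrains NF-kB signalling, and in hepatocytes miR-181a can target Sirt1, a deacetylase tied to insulin sensitivity. The 3p arms are usually the less abundant strands.

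The 4 arms named 5p are shown because they share a seed and differ only after it, and the seed (bases 2 to 8, counted from the 5′ end) is in capitals. All mature sequences and hairpins are those of RefSeq on GRCm38.p6, where 7 of 7 names matched.
miR-181a-5p: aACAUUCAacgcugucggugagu
miR-181b-5p: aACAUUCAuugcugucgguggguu
miR-181c-5p: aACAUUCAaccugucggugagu
miR-181d-5p: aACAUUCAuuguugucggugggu

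The 4 arms share the seed ACAUUCA, and none of the other mature miRNAs among 1679 RefSeq names carries it. miR-181a-5p and miR-181c-5p lie at an edit distance of 1. miR-181b-5p and miR-181d-5p lie at an edit distance of 2, with the substitution C12U (miR-181b-5p first) and one base at the 3′ end. Reads of pairs this close, among the 5p arms and among the 3p arms alike, may have been split uncertainly between the rows, which was not tested. The 3p arms are shown because they differ by locus where the 5p arms do not.
miR-181a-1-3p: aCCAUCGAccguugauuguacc
miR-181a-2-3p: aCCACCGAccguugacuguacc
miR-181c-3p: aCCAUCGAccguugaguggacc

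Here miR-181a-1-3p and miR-181c-3p share the seed CCAUCGA, whereas miR-181a-2-3p has CCACCGA. The 2 miR-181a 3p arms differ by U5C and U16C (miR-181a-1-3p first), and the first of these lies in the seed. miR-181a-1-3p and miR-181c-3p also lie at an edit distance of 2. No other RefSeq mature miRNA carries either seed.

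The family is cut from 3 pairs of hairpins. Mir181a-1 and Mir181b-1 lie 97 bases apart on the plus strand of chromosome 1 (chr1:137966455-137966718, GRCm38), inside an intron of Gm4258 and over an exon of the lincRNA A430106G13Rik, and on the opposite strand lies an intron of Gm26936. Mir181a-2 and Mir181b-2 lie 1019 bases apart on the plus strand of chromosome 2 (chr2:38852735-38853918), within an intron of Nr6a1, a nuclear receptor gene on the opposite strand. Mir181b-2 also overlaps an exon of Gm44144 on that strand. Mir181d and Mir181c lie 85 bases apart on the minus strand of chromosome 8 (chr8:84178716-84178961), within an intron of Nanos3 on the same strand. The hairpins of the 2 miR-181a loci are printed with both arms in capitals.
Mir181a-1 (chr1:137966455-137966541, plus strand): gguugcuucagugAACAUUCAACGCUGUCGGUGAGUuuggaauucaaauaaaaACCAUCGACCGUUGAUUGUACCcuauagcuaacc
Mir181a-2 (chr2:38852735-38852810, plus strand): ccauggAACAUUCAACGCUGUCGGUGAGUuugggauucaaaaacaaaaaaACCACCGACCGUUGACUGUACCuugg

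Both hairpins release the same 5p arm, so a miR-181a-5p read does not show its locus, whereas the sequence of each 3p arm does. The same holds for miR-181b-5p and its 2 loci. The 3p arms of the miR-181b loci and of miR-181d were in the table but did not pass the filter. miR-181b-1-3p had 74 counts over the 23 libraries, miR-181b-2-3p had 22 and miR-181d-3p had 4.

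The libraries held between 3725432 and 8139344 counts, and the lowest count of any member in any library was 57. Levels are given as CPM, the counts scaled to library size with TMM factors. The counts are of reads of whole small RNAs, so no length correction enters, but adapter ligation differs between sequences and was not measured. Some rows outside the family had near-equal means, such as miR-126a-5p (17398.3 CPM) and miR-126b-3p (17398.4 CPM). A read may thus have been counted in more than 1 row, which was not tested. One library stood apart from the rest of its group, reference replicate 3, which was highest of the 23 libraries for 7 of 7 members. It was also highest for 82 of the 386 tested miRNAs (21.2%), against 37 for the library with the next most. The summed level of 4 hepatocyte miRNAs, of which miR-192-5p held the most reads, was lowest there (113554 CPM), against 212679 to 267128 CPM in HFoleic and 210439 to 257368 CPM in HFepa. The summed levels of the 5 biliary (1094 CPM), 6 stellate cell and fibroblast (43353 CPM) and 6 leukocyte miRNAs (3555 CPM) were highest there. Those of the 2 endothelial (13882 CPM) and 4 red blood cell miRNAs (3570 CPM) were lowest. No listed marker was absent from the table or at 0 in a whole group, and hepatocyte miRNAs had means of 216777 ± 44392 CPM in the reference group (SD, n = 8), 248751 ± 17591 CPM in HFoleic (n = 8) and 233610 ± 14582 CPM in HFepa (n = 7). That reference mean includes replicate 3, and the medians were 234128, 255867 and 231220 CPM in the same order. The part of these cell types in the values of reference replicate 3 was not tested. In the first 2 comparisons below, each member's fold change is given with and without reference replicate 3. Marker sums include that library and are given with ranges or medians.

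The 5p arms made up most of the family, and miR-181a-5p alone most of the 5p reads. The 7 members together took 0.561% ± 0.244 of the counts in the reference group (SD, n = 8), 0.416% ± 0.0358 in HFoleic (n = 8) and 0.441% ± 0.0463 in HFepa (n = 7). The reference share without reference replicate 3 was 0.477% ± 0.0537 (n = 7). Over all 23 libraries miR-181a-5p averaged 3970 CPM, miR-181c-5p 438 CPM, miR-181b-5p 159 CPM and miR-181d-5p 39.3 CPM. This order held in 23 of 23 libraries. The ranges over all libraries were apart only between miR-181a-5p and miR-181c-5p, and those of the other neighbours in the order overlapped. Among the 3p arms, miR-181a-2-3p averaged 34.8 CPM, miR-181c-3p 18.6 CPM and miR-181a-1-3p 15.7 CPM. miR-181a-2-3p lay above miR-181c-3p in 23 of 23 libraries. Its place next to miR-181d-5p was not fixed, since miR-181d-5p was the higher in 15 of 23 libraries, and miR-181c-3p lay above miR-181a-1-3p in 16 of 23.

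**Figure D1:**
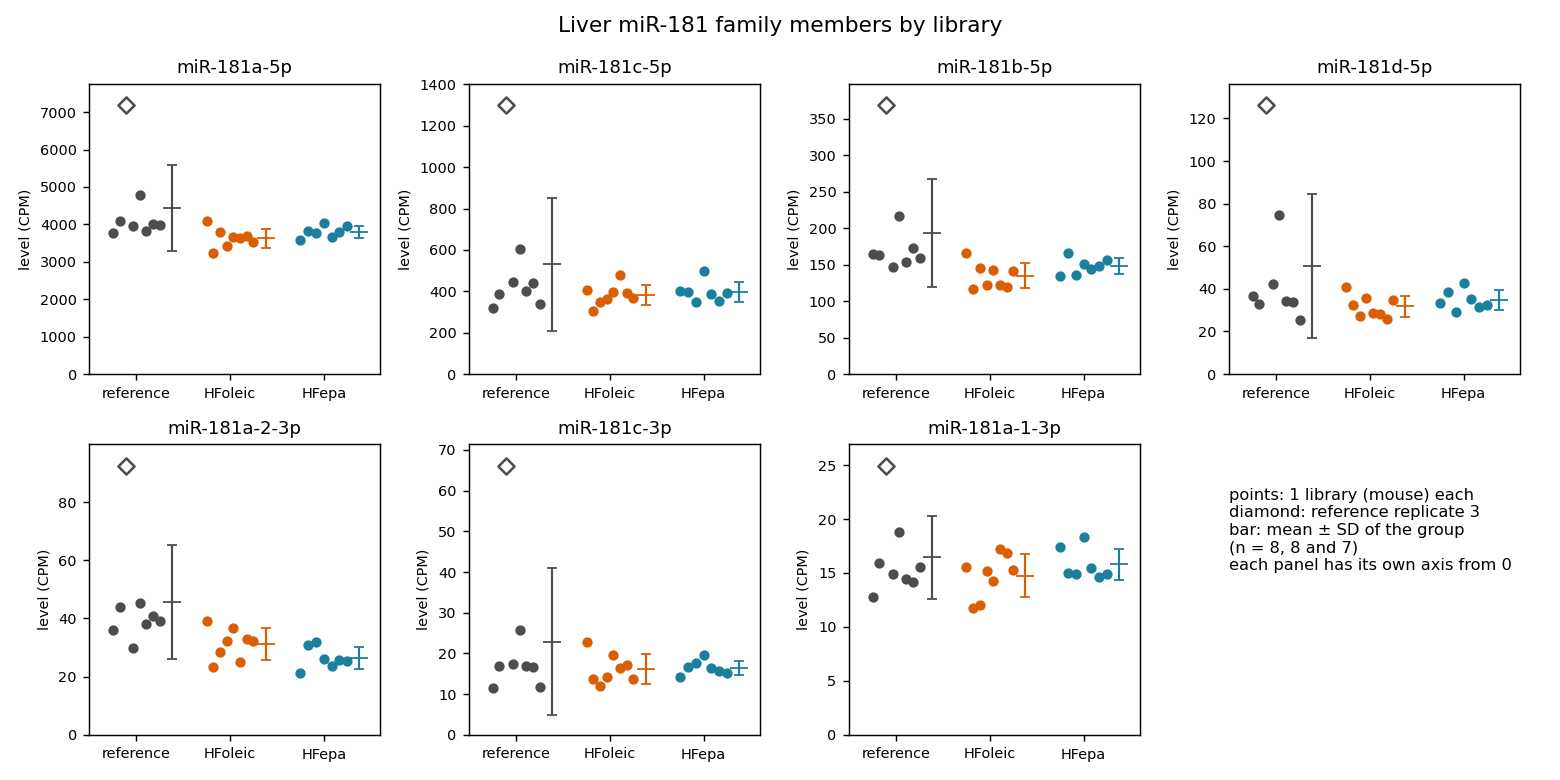
Level of each member (CPM, linear axis from 0 in each panel) in every library of the reference (n = 8), HFoleic (n = 8) and HFepa (n = 7) groups, with 1 point per mouse and the group mean ± SD as a bar. The diamond marks reference replicate 3, the highest point of every panel, and for miR-181a-2-3p the HFepa points, between 21.3 and 31.9 CPM, lie low against the reference points.

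The first comparison, HFoleic vs. reference, asks what the high-fat diet changed within the control lineage. A call required 2 conditions, an adjusted p under 0.05 (edgeR's quasi-likelihood test, adjusted over 386 miRNAs by Benjamini-Hochberg) and a log2 fold change above 0.25 in size. Of the 7 members, 2 were called lower, miR-181b-5p and miR-181a-2-3p, and 0 were called higher, where 7.51% of all tested miRNAs were called lower. The log2 fold change was negative for 7 of 7 members and for 51% of all tested miRNAs. Its median was -0.50 for the members, beside -0.00 over all tested miRNAs. The members' median without reference replicate 3 was -0.16, with 1 member called lower, and 6.23% of all tested miRNAs were.

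mmu-miR-181b-5p, the arm known for restraining NF-kB in endothelium, had 165, 163, 369, 146, 217, 154, 173 and 159 CPM in reference replicates 1 to 8. In HFoleic replicates 1 to 8 it had 166, 117, 145, 123, 142, 122, 119 and 142 CPM. HFoleic replicate 1 lay among the reference libraries, and the remaining 7 lay below the lowest of them. The group means were 193 ± 74.1 CPM (SD, n = 8) in the reference and 135 ± 17.1 CPM (n = 8) in HFoleic, and miR-181b-5p fell, with a log2 fold change of -0.52 (SE 0.15, edgeR adjusted p = 0.0278). With that replicate 3 left out, the reference mean was 168 ± 22.997 CPM, and the log2 fold change was -0.32 (edgeR adjusted p = 0.0309). Leaving out reference replicate 5 or HFoleic replicate 2, 5, 6 or 7 ended the call, with adjusted p-values up to 0.0601. miR-181b-5p belongs to a list that the study chose on these mice, so its direction here is not independent evidence. The other members, miR-181a-2-3p among them, were also chosen with earlier results of these data known, so the same limit holds for them.

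mmu-miR-181a-2-3p, the 3p arm of the chromosome 2 locus, had 36.1, 43.8, 92.4, 29.7, 45.3, 38.2, 40.8 and 39.0 CPM in reference replicates 1 to 8. In HFoleic replicates 1 to 8 it had 39.0, 23.4, 28.6, 32.2, 36.9, 24.9, 32.9 and 32.3 CPM. The ranges overlapped, with 8 of 8 HFoleic libraries below the reference median and 3 below the lowest reference library. The means were 45.7 ± 19.5 CPM (SD, n = 8) and 31.3 ± 5.41 CPM (n = 8), with a log2 fold change of -0.55 (SE 0.18, edgeR adjusted p = 0.0464). This call rested on reference replicate 3: without it the reference mean was 39.0 ± 5.18 CPM, and the log2 fold change was -0.32 (SE 0.12, edgeR adjusted p = 0.0787). The call was also near the threshold, since it held in 6 of 23 fits that left out 1 library each, with adjusted p-values from 0.0291 to 0.0891.

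The other 5 members did not pass the threshold in HFoleic vs. reference. mmu-miR-181a-5p, the most abundant arm and the one known to act on Sirt1, ranged from 3772 CPM (median 3987) to 7186 CPM in the reference and from 3245 CPM (median 3647) to 4096 CPM in HFoleic. The means were 4448 ± 1150 and 3636 ± 254 CPM (SD, n = 8 each), with a log2 fold change of -0.29 (SE 0.10, edgeR adjusted p = 0.0652), and -0.16 (adjusted p = 0.0809) without reference replicate 3. The 2 arms of the chromosome 8 cluster that carry the shared seed had wide ranges in the reference group. mmu-miR-181c-5p ranged from 318 (median 421) to 1300 CPM in the reference and from 306 (median 380) to 478 CPM in HFoleic, with a log2 fold change of -0.47 (SE 0.21, edgeR adjusted p = 0.151). mmu-miR-181d-5p ranged from 25.3 (median 35.4) to 126 CPM in the reference and from 26.1 (median 30.6) to 40.8 CPM in HFoleic, with a log2 fold change of -0.68 (SE 0.25, edgeR adjusted p = 0.0837). Both sets of ranges overlapped, and without reference replicate 3 the log2 fold changes were -0.14 (adjusted p = 0.495) for miR-181c-5p and -0.33 (adjusted p = 0.220) for miR-181d-5p. Among the 3p arms, mmu-miR-181c-3p had 22.9 ± 17.999 CPM in the reference and 16.2 ± 3.61 CPM in HFoleic (SD, n = 8 each), with a log2 fold change of -0.50 (SE 0.28, edgeR adjusted p = 0.225) that was -0.05 without reference replicate 3. mmu-miR-181a-1-3p had 16.4 ± 3.84 and 14.8 ± 2.01 CPM (SD, n = 8 each), with a log2 fold change of -0.16 (SE 0.12, edgeR adjusted p = 0.403), and of -0.05 without reference replicate 3.

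The second comparison, HFepa vs. reference, sets mice of the n-3PUFA lineage on the high-fat diet against mice of the control lineage on the low-fat diet, so lineage and diet cannot be told apart in it. It shares the reference mice with the first. Of the 7 members, 1 was called lower, miR-181a-2-3p, and 0 were called higher, where 10.6% of all tested miRNAs were called lower. The log2 fold change was negative for 7 of 7 members and for 57.3% of all tested miRNAs. Its median was -0.42 for the members, beside -0.06 over all tested miRNAs. Without reference replicate 3 the log2 fold change was negative for 6 of 7 members and for 54.3% of all tested miRNAs. The members' median was then -0.09, 1 member was again called lower, and 8.57% of all tested miRNAs were.

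miR-181a-2-3p had 21.3, 31.0, 31.9, 26.2, 23.8, 25.8 and 25.3 CPM in HFepa replicates 1 to 7, a mean of 26.5 ± 3.79 CPM (SD, n = 7) against 45.7 ± 19.5 CPM in the reference (n = 8). In HFepa, 5 of 7 libraries lay below the lowest reference library (29.7 CPM), and 7 of 7 lay below the reference median, with replicates 2 and 3 inside the reference range. The ranges thus overlapped, whereas 2.59% of all tested miRNAs had every HFepa library below every reference library. miR-181a-2-3p fell to a fold of 0.579 of the reference, a log2 fold change of -0.79 (SE 0.19, edgeR adjusted p = 0.00818), which ranked 15 by p among the 386 miRNAs tested. Without reference replicate 3 the log2 fold change was -0.56 (SE 0.12, edgeR adjusted p = 0.00578). The call held in 23 of 23 fits that left out 1 library each, with log2 fold changes from -0.86 to -0.56. In counts, these values rest on 95 to 126 reads per HFepa library and 189 to 638 per reference library.

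The other 6 members were not called in HFepa vs. reference. miR-181b-5p ranged from 134 (median 149) to 166 CPM in HFepa, with 3 of 7 libraries below the lowest reference library, and had a mean of 148 ± 11.3 CPM (SD, n = 7) and a log2 fold change of -0.38 (SE 0.15, edgeR adjusted p = 0.0923). miR-181a-5p ranged from 3582 (median 3807) to 4032 CPM and had a log2 fold change of -0.22 (SE 0.11, edgeR adjusted p = 0.160). miR-181c-5p ranged from 351 (median 390) to 499 CPM, and its log2 fold change was -0.42 (SE 0.22, edgeR adjusted p = 0.229). These 3 arms overlapped with the reference, and without reference replicate 3 their log2 fold changes were -0.19, -0.09 and -0.08. miR-181d-5p had 34.8 ± 4.58 CPM (SD, n = 7) and a log2 fold change of -0.55 (SE 0.26, edgeR adjusted p = 0.163), which was -0.21 (edgeR adjusted p = 0.508) without reference replicate 3. miR-181c-3p had 16.4 ± 1.78 CPM (SD, n = 7) and a log2 fold change of -0.48 (SE 0.29, edgeR adjusted p = 0.290), which was -0.03 without reference replicate 3. miR-181a-1-3p, the 3p arm of the chromosome 1 locus, had 15.8 ± 1.47 CPM (SD, n = 7) beside 16.4 ± 3.84 CPM in the reference, with a log2 fold change of -0.06 (SE 0.13, edgeR adjusted p = 0.810) and of 0.05 without reference replicate 3.

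**Figure D2:**
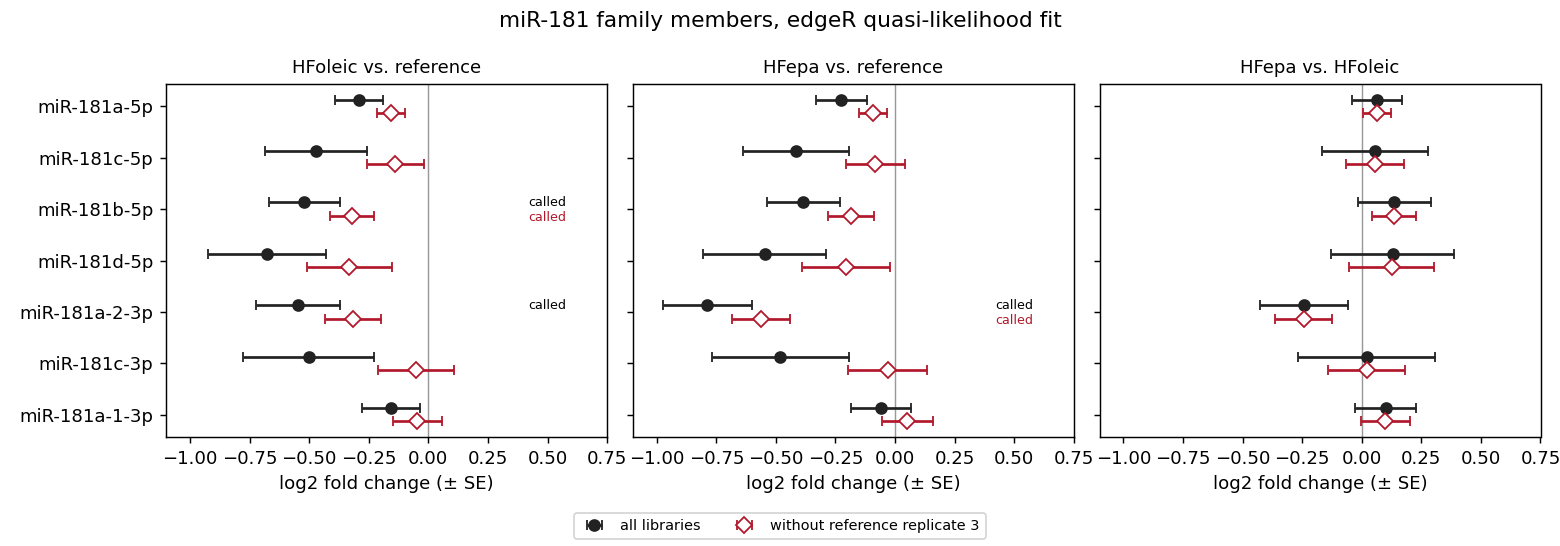
Log2 fold change (± SE) of each member in the 3 comparisons, from edgeR's quasi-likelihood fit of all 23 libraries (filled circles) and without reference replicate 3 (open diamonds), with the called members marked. Leaving that library out moves the values of the first 2 panels toward 0 or, for miR-181a-1-3p in HFepa vs. reference, past it, and miR-181a-2-3p in HFepa vs. reference stays called at -0.56.

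The third comparison, HFepa vs. HFoleic, asks whether the lineage made a difference under the high-fat diet. None of the 7 members was called, and 0% of all tested miRNAs were called, with 22 at an unadjusted p under 0.05 (5.7%) and 0 called by DESeq2. None of the 7 members had an unadjusted p under 0.05. The log2 fold change of miR-181a-2-3p was -0.24 (SE 0.18, edgeR adjusted p = 0.937), with 7 of 7 HFepa libraries below the HFoleic median and 1 of 7 below the lowest HFoleic library. For the other 6 members it lay between 0.02 (miR-181c-3p) and 0.14 (miR-181b-5p, SE 0.15). With all libraries each of these differences was smaller than 2 SE, which does not show that the groups had equal levels. Without reference replicate 3, miR-181a-2-3p had a log2 fold change of -0.244 (SE 0.119, edgeR adjusted p = 0.555) and was not called. In that fit 0 members had an unadjusted p under 0.05. The fall of miR-181a-2-3p in HFepa vs. reference is therefore not shown to differ from that in HFoleic vs. reference.

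Library numbers in the labels run with the groups. The reference libraries are numbered 1 to 8, HFepa 16 to 22, and HFoleic 9 to 15 and 23, so no number up to 11 is HFepa and none above 11 is reference. A term in the model told numbers 1 to 11 and 12 to 23 apart, a cut set in the analysis and not given by the labels. The term rests on HFoleic, the only group with libraries on both sides of the cut. With it 0 members were called in any comparison, where 0.259% of all tested miRNAs were called in HFoleic vs. reference and 0% in the other 2 comparisons. In that fit miR-181a-2-3p had log2 fold changes of -0.59 in HFoleic vs. reference (SE 0.25, edgeR adjusted p = 0.415) and -0.86 in HFepa vs. reference (SE 0.33, edgeR adjusted p = 0.723). miR-181b-5p had -0.44 in HFoleic vs. reference (SE 0.21, edgeR adjusted p = 0.437). Without the term these SEs were 0.18, 0.19 and 0.15, and the log2 fold changes were -0.55, -0.79 and -0.52. The calls were thus lost with larger SEs, which does not show that the differences were absent. In libraries 1 to 11 alone, HFoleic has numbers 9 to 11 only. The HFoleic vs. reference values there were -0.58 for miR-181a-2-3p and -0.42 for miR-181b-5p (edgeR adjusted p = 0.662 for both), beside -0.55 and -0.52 with all libraries. In libraries 12 to 23 alone, the log2 fold change of miR-181a-2-3p in HFepa vs. HFoleic was -0.26 (edgeR adjusted p = 0.822). For HFepa vs. reference no set of numbers holds both groups, so library number and group cannot be told apart there.

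The ratio of the 2 miR-181a 3p arms within a library does not depend on how libraries are scaled, and it sets 1 arm of each locus side by side. How far it follows the output of the 2 loci was not tested. miR-181a-2-3p had 2.71 ± 0.490 reads per miR-181a-1-3p read in the reference (SD, n = 8), 2.14 ± 0.364 in HFoleic (n = 8) and 1.69 ± 0.332 in HFepa (n = 7). The values ran from 2 (median 2.70) to 3.71 in the reference, from 1.45 (median 2.12) to 2.59 in HFoleic and from 1.22 (median 1.70) to 2.14 in HFepa. In each library miR-181a-2-3p was the more abundant of the pair, and the ranges of all 3 groups overlapped. The reference ratio without reference replicate 3 was 2.57 ± 0.302 (n = 7). Relative to the shared guide arm, miR-181a-2-3p had 10.0 ± 1.48 reads per 1000 miR-181a-5p reads in the reference, 8.58 ± 1.197 in HFoleic and 6.95 ± 0.940 in HFepa. For miR-181a-1-3p the same ratio was 3.71 ± 0.212 in the reference, 4.06 ± 0.535 in HFoleic and 4.16 ± 0.414 in HFepa. Without reference replicate 3 the reference values were 9.61 ± 0.999 for miR-181a-2-3p and 3.75 ± 0.204 for miR-181a-1-3p (n = 7). These ratios are descriptions and were given no test.

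**Figure D3:**
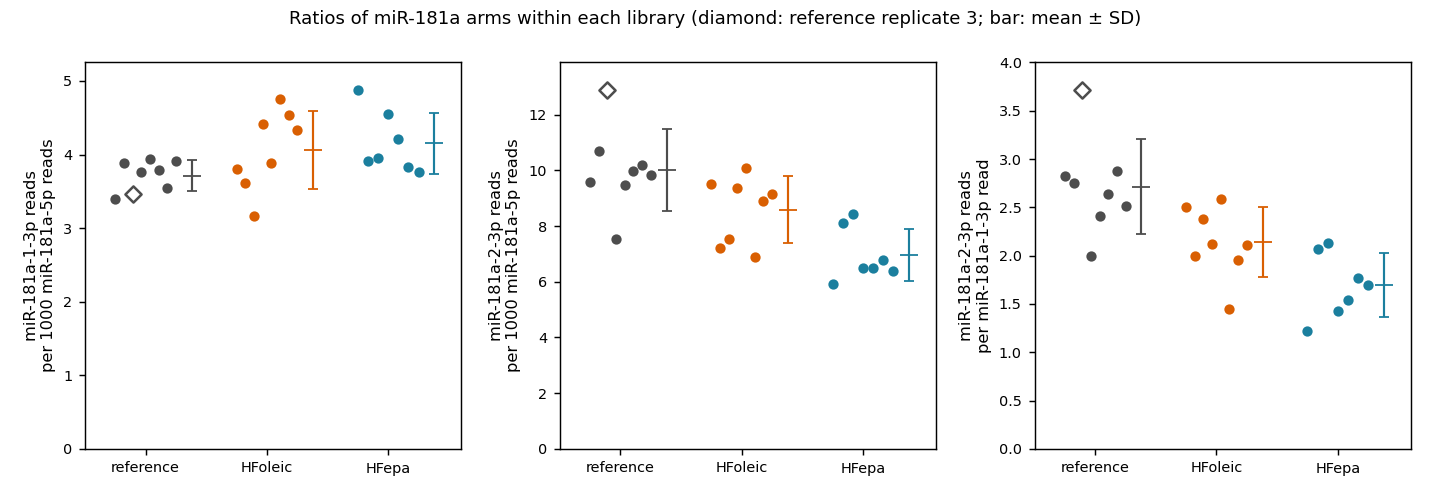
Reads of miR-181a-1-3p per 1000 reads of miR-181a-5p, of miR-181a-2-3p per 1000 reads of miR-181a-5p, and of miR-181a-2-3p per read of miR-181a-1-3p in every library (linear axes from 0, 1 point per mouse, bars are the group mean ± SD, the diamond is reference replicate 3). The group means of the last ratio are 2.71 in the reference, 2.14 in HFoleic and 1.69 in HFepa, with overlapping points.

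The ratios between the 5p arms overlapped between the groups as well. miR-181b-5p had 4.26 ± 0.439 reads per 100 miR-181a-5p reads in the reference (SD, n = 8), 3.69 ± 0.303 in HFoleic (n = 8) and 3.89 ± 0.241 in HFepa (n = 7). miR-181c-5p had 11.3 ± 3.11, 10.5 ± 1.22 and 10.4 ± 1.12 reads per 100 miR-181a-5p reads in the same groups. Without reference replicate 3 the reference values were 4.13 ± 0.283 for miR-181b-5p and 10.3 ± 1.55 for miR-181c-5p (n = 7). miR-181d-5p had 10.7 ± 3.90, 8.76 ± 1.42 and 9.13 ± 1.07 reads per 1000 miR-181a-5p reads, and 24.7 ± 6.97, 23.8 ± 3.54 and 23.5 ± 2.71 reads per 100 miR-181b-5p reads, in the same groups. Its reference values without reference replicate 3 were 9.70 ± 2.96 and 23.4 ± 6.28 (n = 7). On the chromosome 8 hairpin miR-181c-3p had 4.09 ± 0.524, 4.24 ± 0.772 and 4.16 ± 0.493 reads per 100 reads of its 5p arm. In reference replicate 3 miR-181c-5p had 18.1 reads per 100 miR-181a-5p reads, so the members were not raised there by one common factor. Relative to the median of the other reference libraries, that library lay 0.73 higher on the log2 scale for miR-181a-1-3p, 0.85 for miR-181a-5p, 1.17 for miR-181b-5p, 1.24 for miR-181a-2-3p, 1.69 for miR-181c-5p, 1.87 for miR-181d-5p and 1.94 for miR-181c-3p.

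The members varied together between mice of one group, as a description over 23 libraries that share their depth scaling. The Pearson correlation of the deviations of log2 CPM from the group means lay between 0.624 and 0.942 over the pairs of members. Without reference replicate 3 it lay between 0.147 and 0.793 (n = 22), so much of the likeness rested on that library. miR-181a-5p and miR-181b-5p, which are cut from the same 2 clusters, had r = 0.942, and 0.793 without it. miR-181c-5p and miR-181c-3p, the arms of one hairpin, had r = 0.928, and 0.766 without it. miR-181c-5p and miR-181a-1-3p come from different chromosomes and had r = 0.868, and 0.764 without it. The 2 miR-181a 3p arms had r = 0.624, and 0.232 without it.

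**Figure D4:**
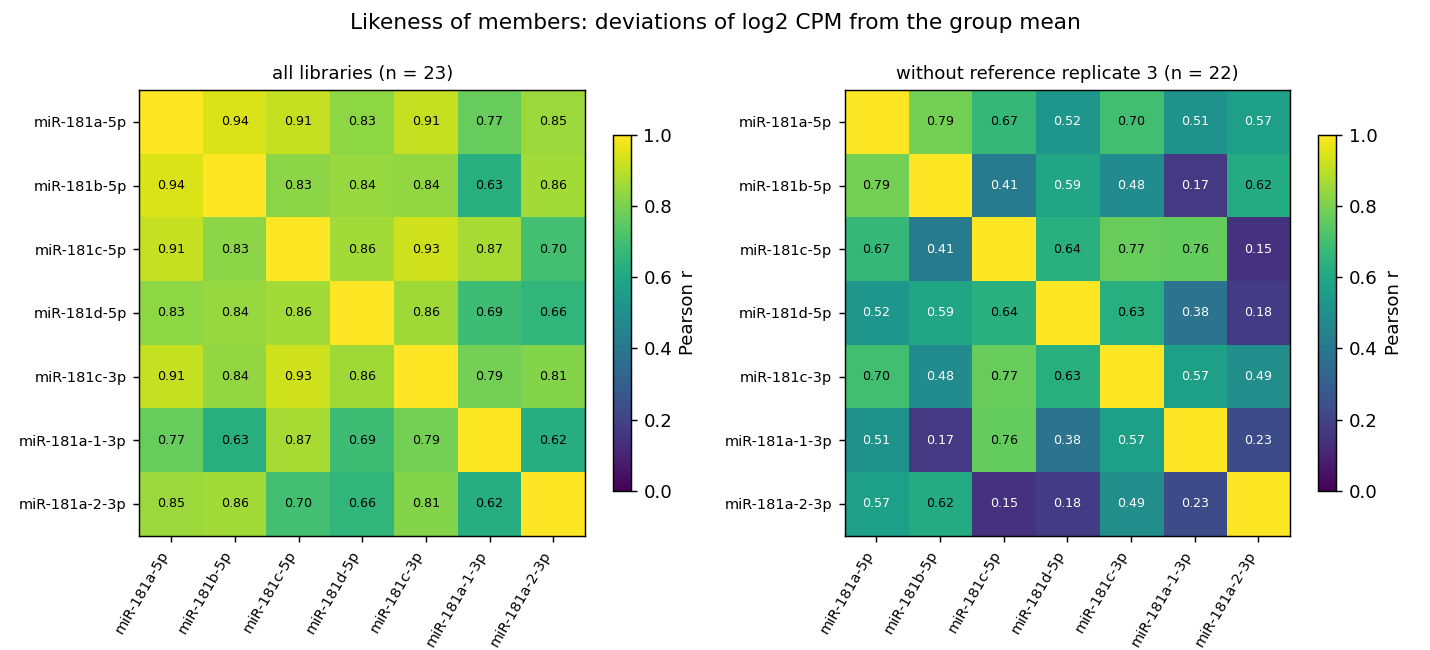
Pearson r between the members' deviations of log2 CPM from their group mean, over all 23 libraries (left) and without reference replicate 3 (right, n = 22), with r printed in each cell and coloured from 0 to 1. The values lie between 0.624 and 0.942 on the left and between 0.147 and 0.793 on the right, where the row of miR-181a-2-3p holds several of the low ones.

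Outside the family, the 2 miRNAs most like each member were sought among 252 miRNAs of at least 10 CPM by the same measure. For miR-181c-5p they were miR-199b-3p (r = 0.953) and miR-199a-3p (r = 0.951), which are known from stellate cells and fibroblasts. These 2 rows may share reads with each other, which was not tested. Without reference replicate 3 they were still the nearest, with r = 0.830 and 0.824 (n = 22), the second value given for each pair below. The same pair was nearest to miR-181c-3p in both sets of libraries (r = 0.909 and 0.908, then 0.680 and 0.678). It was also nearest to miR-181d-5p (r = 0.849 and 0.848), but came to ranks 11 and 12 without that library (0.591 and 0.587). For miR-181a-5p the nearest was miR-146b-5p (r = 0.918, then 0.668 at rank 2), followed by miR-199a-3p (r = 0.905, then 0.520 at rank 12). For miR-181b-5p they were miR-146b-5p (r = 0.881, then 0.585 at rank 7) and miR-92b-3p (r = 0.869, then 0.622 at rank 3). For miR-181a-1-3p they were miR-199a-5p (r = 0.832, then 0.668 at rank 2) and miR-143-3p (r = 0.827, then 0.697 at rank 1), both again known from mesenchymal cells. For miR-181a-2-3p they were miR-92b-3p (r = 0.797, then 0.484 at rank 3) and miR-199a-3p (r = 0.757, then 0.212 at rank 50).

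Markers of other liver cells were read beside these results. The summed level of the 6 stellate cell and fibroblast miRNAs was 28816 ± 6644 CPM in the reference (SD, n = 8, range 23689 to 43353), 25556 ± 3089 in HFoleic (n = 8, 20055 to 28795) and 26527 ± 2267 in HFepa (n = 7, 23708 to 30598), and 0 of 6 were called in any of the 3 comparisons. The highest reference value was replicate 3, and the medians were 26357, 25919 and 25925 CPM in the same order. For the 6 leukocyte miRNAs the sums were 2354 ± 622 CPM (1760 to 3555), 1958 ± 273 (1533 to 2439) and 2128 ± 331 (1543 to 2445), with medians of 2210, 1914 and 2107 CPM. Of these 6, 1 was called lower in both comparisons with the reference, miR-150-5p, which is known from mature lymphocytes. Its mean was 322 CPM in the reference, 167 CPM in HFoleic (log2 fold change -0.94, edgeR adjusted p = 0.0174) and 122 CPM in HFepa (log2 fold change -1.40, edgeR adjusted p = 0.00122). Without reference replicate 3 its log2 fold changes were -0.81 and -1.27. The other leukocyte miRNAs did not follow it. Without that library theirs lay between -0.23 and 0.07 in HFoleic vs. reference and between -0.02 and 0.14 in HFepa vs. reference, and none was called. For the 5 biliary miRNAs the sums ran from 151 (median 191) to 1094 CPM in the reference, from 157 (median 233) to 333 CPM in HFoleic and from 191 (median 216) to 263 CPM in HFepa, and the highest was reference replicate 3. Of these 5, miR-429-3p was called lower in HFepa vs. reference (log2 fold change -1.22, edgeR adjusted p = 0.0340), but not without that library (-0.48, edgeR adjusted p = 0.0750), when miR-141-3p was called higher in HFoleic vs. reference (0.60, edgeR adjusted p = 0.0448). Of the 2 endothelial miRNAs, miR-126a-5p was called higher in HFepa vs. reference (log2 fold change 0.25, edgeR adjusted p = 0.0416), and had a log2 fold change of 0.20 without that library, under the fold threshold. Of 4 muscle miRNAs, 1 was tested, miR-133a-3p, and it was called lower in HFoleic vs. reference (-2.64, edgeR adjusted p = 0.0391) and in HFepa vs. reference (-2.85, edgeR adjusted p = 0.0340). The muscle sum reached 217 CPM in reference replicate 4 against a reference median of 6.05 CPM, and miR-181a-2-3p was lowest of the reference libraries in that replicate (29.7 CPM). The part of these cell types in the levels of the miR-181 arms was not tested, and in whole liver fewer cells of a type and less RNA per cell cannot be told apart.

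The family was set beside other miRNAs known to act on its pathways. Of 7 listed miRNAs that act on Sirt1, 3 passed the filter, and 0 of 3 were called in any comparison. The median of these 3 log2 fold changes was -0.06 in HFoleic vs. reference, -0.01 in HFepa vs. reference and 0.07 in HFepa vs. HFoleic. Leaving out reference replicate 3 gave medians of 0.26, 0.32 and 0.07 in the same order. Without reference replicate 3, miR-34a-5p, which represses Sirt1, was called higher in HFoleic vs. reference (log2 fold change 1.02, edgeR adjusted p = 0.0240). In HFepa vs. reference its log2 fold change was 0.71 without that library (edgeR adjusted p = 0.0841), against -0.01 with it. With all libraries it had means of 33.3 CPM in the reference and 41.4 CPM in HFoleic, with a log2 fold change of 0.31 (SE 0.40, edgeR adjusted p = 0.653). Of 7 listed miRNAs that act on NF-kB signalling, 7 passed the filter, and 1 was called higher and 0 lower in both comparisons with the reference, where 4.92% of all tested miRNAs were called higher in HFoleic and 5.18% in HFepa. The one called, miR-125b-5p, which can repress tumour necrosis factor, had a mean of 592 CPM in the reference, 1084 CPM in HFoleic (log2 fold change 0.87, SE 0.24, edgeR adjusted p = 0.0249) and 1209 CPM in HFepa (log2 fold change 1.03, SE 0.25, edgeR adjusted p = 0.00877). The median of the list was -0.27 in HFoleic vs. reference and -0.10 in HFepa vs. reference. Without reference replicate 3 these medians were 0.07 and 0.06, so their sign rested on that library.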

How the data were processed

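Total RNA of liver (1 library per mouse) was made into small RNA libraries with a TruSeq kit and sequenced. The authors used the FASTX-Toolkit to trim adapters and Bowtie, run in ncPRO-seq, to align the reads and annotated them to miRBase mature miRNAs. Their methods name the genome as GRCm38.p6 and mm9, and the submitters' processing notes name mm10 and bcl2fastq 2.17.1.14. The deposited counts are raw read counts per mature miRNA with no coordinates. Values divided by a size factor, group means and the authors' own comparison columns (fold changes and p-values) were deposited beside them and not used.

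Of 1218 miRNAs, 386 passed filterByExpr by group and held 99.98% of the counts. The fold changes came from edgeR's quasi-likelihood test on 1 model of the 3 groups with TMM factors, adjusted by Benjamini-Hochberg, and the SE is the log2 fold change over the square root of F. The study's methods name DEGseq, which takes reads rather than mice as the error, so edgeR was used in its place. The thresholds of a call were 0.05 for the adjusted p and 0.25 for the size of the log2 fold change. Likeness used log2 CPM with a prior count of 2. Named were the 7 members, other miR-181 rows, the 2 miRNAs most like each member, called miRNAs of the Sirt1 and NF-kB lists and, after their values were seen, called markers and miR-34a-5p. The members and lists were chosen with earlier results of these data known. Libraries of a group differed beyond sampling noise (lowest chi-square per degree of freedom 31.95), and each counts as 1 replicate. Alternatives were DESeq2, other scalings, other filters, only the compared groups, library-number terms and each library left out. R 4.3.3, edgeR 4.0.16, DESeq2 1.42.0, limma 3.58.1, Python 3.11.15, pandas 2.3.3 and matplotlib 3.10.9 were used.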

Additional observations from a re-analysis of the deposited data

Results flagged for a closer look

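In the reference group, 1 library, replicate 3, stood apart from the others by Dixon's criterion for 5 members. It had 7186 CPM of miR-181a-5p, 369 CPM of miR-181b-5p, 1300 CPM of miR-181c-5p, 92.4 CPM of miR-181a-2-3p and 66.1 CPM of miR-181c-3p, and the gap to the next library took between 0.684 and 0.751 of the group's range, above the 95% critical value for 8 samples. In HFepa, replicate 4 stood apart for miR-181c-5p with 499 CPM (gap 0.646 of the range, above the critical value for 7 samples). Of 21 combinations of a member and a group, 6 were set apart in this way, where chance gives about 1 in 20, and the 5 reference values come from 1 library, so they are not independent of each other.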

How the results depend on the processing

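The numbers of miRNAs and of members called depended on the fit. In HFoleic vs. reference 48 miRNAs were called (19 higher, 29 lower), against 47 with library size in place of TMM (10 higher, 37 lower), 25 with DESeq2 (15 higher, 10 lower), 10 with quantile normalization and limma (8 higher, 2 lower), 29 with no filter on low counts, 7 with only the 2 groups compared, 1 with the term for library number and 0 in libraries 1 to 11 alone. In HFepa vs. reference 61 were called (20 higher, 41 lower), against 40 with only the 2 groups compared, 25 with quantile normalization (18 higher, 7 lower) and 0 with the library term. The 2 members called in HFoleic vs. reference became 0 with quantile normalization, with no filter, with only the 2 groups compared, with the library term and in libraries 1 to 11 alone, and 3 with DESeq2 size factors in edgeR, where miR-181a-5p was called (-0.29, edgeR adjusted p = 0.0419). The 1 member called in HFepa vs. reference became 0 with quantile normalization (miR-181a-2-3p at -0.52, limma adjusted p = 0.0548) and with the library term. It stayed called in 7 of 9 such fits.

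With each library left out in turn, all calls ranged from 12 to 53 in HFoleic vs. reference (12 without reference replicate 5, and 24, 21 and 20 without HFoleic replicates 5, 6 and 7), from 32 to 66 in HFepa vs. reference (36 without reference replicate 5, 38 without HFepa replicate 1 or 3, 32 without HFepa replicate 7) and from 0 to 1 in HFepa vs. HFoleic (1 without HFepa replicate 4). Members called ranged from 0 to 3 in HFoleic vs. reference (0 without reference replicate 5 or HFoleic replicate 2, 5, 6 or 7) and from 1 to 1 in HFepa vs. reference. Without reference replicate 6 or HFoleic replicate 1, miR-181a-5p was called in HFoleic vs. reference, and without reference replicate 8, miR-181d-5p was (-0.74, edgeR adjusted p = 0.0463). Signs turned for miR-181a-1-3p in HFepa vs. reference (0.030 with quantile normalization, -0.092 to 0.051 with a library left out, 0.051 without reference replicate 3), and in HFepa vs. HFoleic for miR-181c-5p (-0.0086 with the library term) and miR-181c-3p (-0.032 to 0.11 with a library left out), none of them called. Of 686 fold changes recomputed, 640 kept their direction and side of the threshold. The causes of these shifts were not tested. No paired analysis was possible because the labels number each library once over the whole series, so no replicate number is shared between groups by the labels. The lowest count of a member in a library was 57, for miR-181a-1-3p. Its SE in HFoleic vs. reference was 0.12, beside 0.21 for miR-181c-5p with at least 1386 counts. Without reference replicate 3 these SEs were 0.10 and 0.12. How far the number of reads set the SE was not tested.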
